A study of Homo sapiens with 6 samples.

Results

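The genes described here encode subunits of the oxidative phosphorylation complexes I, III, IV and V in cells labelled HepG2 that were given polydatin (PD). They were chosen by gene name among protein-coding genes: NDUFA, NDUFB, NDUFC, NDUFS and NDUFV for complex I, UQCR and CYC1 for complex III, COX4I, COX5, COX6, COX7 and COX8 for complex IV, ATP5F, ATP5I, ATP5M and ATP5P for complex V, and the mitochondrially encoded MT-ND, MT-CYB, MT-CO and MT-ATP genes. Of the 28563 genes in the table, 94 matched, with 81 in the nuclear and 13 in the mitochondrial genome. In GENCODE release 44, 99 genes match the same names, and ATP5MGL, COX4I2, COX6A2, COX7B2 and NDUFC2-KCTD14 were not analysed here. NDUFA4 and NDUFA4L2 were counted with complex I by their names, although the NDUFA4 protein is known as a subunit of complex IV.

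PD is a plant-derived glucoside of resveratrol, and HepG2 is an established line of human hepatoma cells. Dishes of this line received either 336 µM PD, the dose in the sample labels, from which the dose in the study's own text differs, or the solvent DMSO, and poly(A) RNA was taken after 24 h from 3 dishes per treatment, with 1 library per dish. The study asked how PD changes gene expression in liver cancer cells. Levels are given in FPKM, in which the fragments of a gene are divided by its exon length and by the library's total. They also depend on the exon length used and on exons shared with other genes, so levels of different genes compare only roughly.

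Complexes I, III and IV pass electrons from NADH and ubiquinol to oxygen and pump protons across the inner mitochondrial membrane, and complex V, the ATP synthase, uses the returning protons to make ATP. Most subunits are encoded in the nucleus and imported, whereas the hydrophobic core subunits of these complexes are encoded in mitochondrial DNA. Mitochondrial DNA is transcribed as long precursors from the heavy and the light strand, which are then processed into individual mRNAs, so that the level of each mRNA also depends on its processing and stability. In liver the same complexes carry the oxidation of fatty acids and amino acids.

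The 6 libraries held 16308476 to 18071632 fragments, and the fragments worked back from the FPKM values summed to 99.7% or more of each total. Of 20 hepatocyte markers listed, 10 were analysed, and HNF4A had a mean of 0.049 FPKM over the 6 libraries. CPS1, the first enzyme of the urea cycle, was the marker that reached a mean of 1 FPKM over the 6 libraries, at 224.9 ± 3.5 FPKM in DMSO and 108.6 ± 2.6 FPKM in PD (SD, n = 3). RBP4, the other marker high enough to be tested, went the other way, from 0.39 ± 0.08 to 1.30 ± 0.38 FPKM (adjusted p = 0.0027, limma). The labelled liver type was thus not borne out by the markers analysed. The 9 endothelial markers analysed summed to 0.314 to 0.373 FPKM in DMSO and 0.433 to 0.480 FPKM in PD, and the 6 fibroblast markers to 4.52 to 5.40 FPKM and 4.82 to 5.09 FPKM. Among the nuclear subunit genes tested, DMSO replicate 2 was the lowest DMSO library for 51 of 72, against 10 for replicate 1 and 11 for replicate 3. In PD the lowest library was replicate 1 for 25, replicate 2 for 19 and replicate 3 for 28. The part of this library in the comparisons was measured by leaving it out, after which 14 nuclear genes were called higher and 14 lower.

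Mitochondrially encoded mRNAs were mostly higher in PD-treated cells, whereas the nuclear genes were divided between rises and falls. Of the 13 mitochondrial genes, 9 were higher, 1 was lower and 3 were not called, with calls made by limma across all genes tested where the adjusted p reached 0.05 or less. The background was high, since 31.9% of the 14400 genes tested were called higher and 26.2% lower. Of the 72 nuclear genes tested, 15 were higher, 14 were lower and 43 were not called, and 40.3% called compares with 58.1% of all genes. The median log2 fold change was 0.35 for the mitochondrial genes, 0.05 for the nuclear genes and 0.01 for all genes tested. No member passed the 2-fold threshold that 3.61% of all genes passed, while voom called 1. With no fold threshold, 47 of the 85 members tested had an unadjusted p under 0.05 (limma). At the adjusted threshold 45.9% of the members were called, against 58.1% of all genes.

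**Figure D1:**
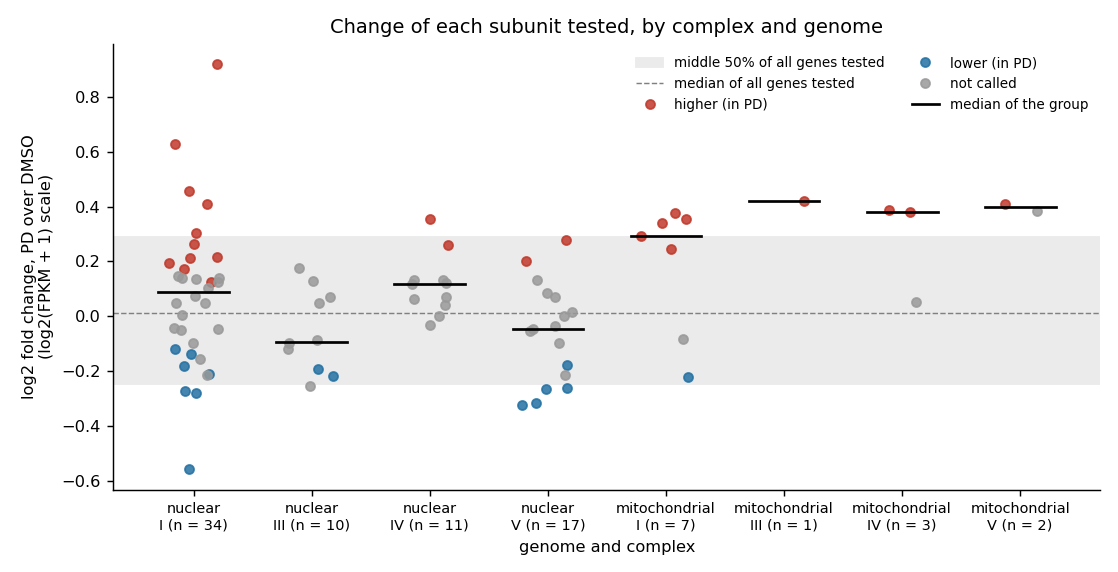
Log2 fold change of PD over DMSO on the log2(FPKM + 1) scale for each of the 85 subunit genes tested, grouped by genome and complex. Black bars are group medians, colours mark the calls, the grey band holds the middle 50% of all genes tested and the dashed line is their median of 0.01; the mitochondrial medians lie between 0.29 and 0.42, and the nuclear medians between -0.09 and 0.12.

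The size of the change in the nuclear genes was small beside other genes. The median absolute log2 fold change was 0.13 for the nuclear genes, 0.35 for the mitochondrial genes and 0.27 for all genes tested. The libraries of the 2 groups did not overlap for 36 of 72 nuclear genes and for 11 of 13 mitochondrial genes, against 65.4% of all genes tested. Among nuclear genes the median coefficient of variation between libraries was 5.67% in DMSO and 3.56% in PD.

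The MT-CYB gene, which encodes cytochrome b of complex III, lies at chrM:14747-15887 and had the largest rise among the mitochondrial genes. It was at 1641, 1674 and 1705 FPKM in the DMSO libraries and at 2213, 2281 and 2221 FPKM in the PD libraries. All PD libraries were above all DMSO libraries, a 1.34-fold rise (log2 fold change 0.42, SE 0.03, adjusted p = 1.5e-05).

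In complex IV, whose catalytic core is made of 3 mitochondrially encoded proteins, the genes did not move alike. MT-CO1, the subunit that holds the oxygen-reducing site, was at 6136, 6032 and 6233 FPKM in DMSO and at 6151, 6757 and 6198 FPKM in PD. These groups overlapped, with a log2 fold change of 0.05 (SE 0.04, adjusted p = 0.28). MT-CO2, which takes electrons from cytochrome c, rose from 5034, 5171 and 5024 FPKM to 6391, 6768 and 6685 FPKM. MT-CO3, the third core subunit, rose from 3488, 3489 and 3449 FPKM to 4639, 4479 and 4508 FPKM. Both rises were 1.30-fold and 1.31-fold, with adjusted p of 3.8e-05 for MT-CO2 and 1.5e-05 for MT-CO3. Within a library, the ratio of MT-CO2 to MT-CO1 was 0.828 ± 0.026 in DMSO and 1.04 ± 0.04 in PD (SD, n = 3), and that of MT-CO3 to MT-CO1 was 0.567 ± 0.013 and 0.715 ± 0.047. These ratios, and those to MT-ND5 given further on, were taken after the values had been seen and carry no test.

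The 7 mitochondrial genes of complex I encode parts of its membrane arm. MT-ND1, where ubiquinone is thought to enter, rose from 1402, 1453 and 1420 FPKM in DMSO to 1743, 1867 and 1858 FPKM in PD (1.28-fold, adjusted p = 9.5e-05). MT-ND2, MT-ND4 and MT-ND4L, which belong to the proton-pumping part, rose 1.27-fold, 1.22-fold and 1.30-fold, and MT-ND3 rose 1.19-fold. In these 5 genes no PD library was below a DMSO library.

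The MT-ND5 and MT-ND6 genes stood on the other side. MT-ND5, the outermost pump subunit, was at 1187, 1189 and 1186 FPKM in DMSO and at 1082, 1170 and 1111 FPKM in PD. The groups did not overlap, and the log2 fold change of -0.08 (SE 0.03) did not pass the test (adjusted p = 0.057). It was called lower without PD replicate 2 (-0.11, adjusted p = 0.013). MT-ND6 is the only member on the light-strand transcript, at chrM:14149-14673 on the minus strand beside the end of MT-ND5. It fell from 845, 763 and 792 FPKM to 679, 700 and 675 FPKM, which was 0.86-fold (log2 fold change -0.22, SE 0.04, adjusted p = 0.0023). This call was lost when values were corrected for GC content and exon length (-0.04, adjusted p = 0.29). The library kit named in the labels does not mark strand, so fragments of MT-ND6 and of antisense RNA from the heavy-strand precursor cannot be told apart. The mRNA of MT-ND6 is known to lack a long poly(A) tail, and the part of poly(A) selection in its level was not tested.

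Because MT-CYB follows MT-ND6 and MT-ND5 on the genome, its ratio to MT-ND5 compares neighbours of 1 precursor. The ratio of MT-CYB to MT-ND5 was 1.41 ± 0.03 in DMSO and 2.00 ± 0.05 in PD, and that of MT-ND4 to MT-ND5 was 2.06 ± 0.03 and 2.67 ± 0.03 (SD, n = 3). Of the 12 genes on the heavy-strand transcript, 9 were higher and 3 were not called, with a median log2 fold change of 0.37. Among all genes tested, 31.9% were called higher.

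**Figure D2:**
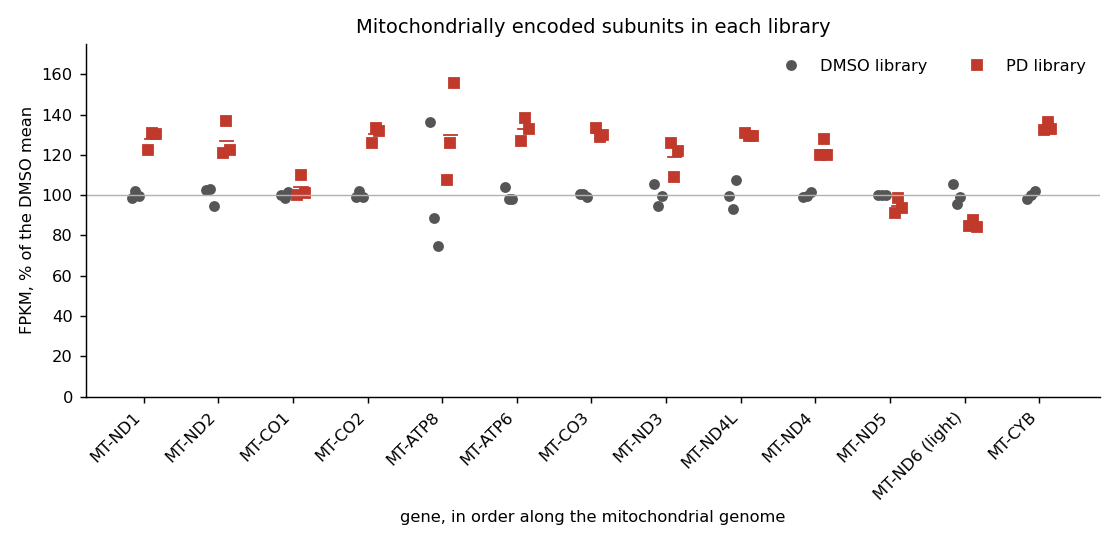
FPKM of each mitochondrially encoded subunit in each library as a percentage of the gene's mean in DMSO (vertical axis), with genes in their order along the mitochondrial genome (horizontal axis). Circles are DMSO libraries, squares are PD libraries, short lines are PD means and "light" marks the light-strand transcript; PD libraries lie above 100% for most genes, around it for MT-CO1 and below it for MT-ND5 and MT-ND6.

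MT-ATP6 and MT-ATP8 encode membrane subunits of complex V and are translated from a shared mRNA. Their reading frames overlap by 46 bases, from chrM:8527-8572. The plus-strand sequence of MT-ATP8 in hg38 is shown because fragments in this overlap match both genes. Capitals mark the bases that also belong to MT-ATP6.
MT-ATP8 (hg38, chrM:8366-8572, plus strand): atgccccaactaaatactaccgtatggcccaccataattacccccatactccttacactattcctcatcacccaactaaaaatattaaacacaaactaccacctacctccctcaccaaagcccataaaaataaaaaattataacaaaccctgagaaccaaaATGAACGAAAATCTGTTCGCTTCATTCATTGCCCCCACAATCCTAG
MT-ATP6 rose from 1437, 1353 and 1350 FPKM to 1753, 1908 and 1836 FPKM (1.33-fold, adjusted p = 0.00011). MT-ATP8 was listed at 25.7, 16.7 and 14.1 FPKM in DMSO and at 20.3, 23.7 and 29.3 FPKM in PD, on 50 to 99 fragments, and the groups overlapped (log2 fold change 0.39, SE 0.22, adjusted p = 0.16). Its level was far below that of MT-ATP6 although both lie on the same RNA, and 22.2% of its 207 bases are shared against 6.90% of MT-ATP6. The part of this overlap in the level of MT-ATP8 was not tested.

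Other RNAs of the mitochondrial genome were read for comparison. The rRNA genes MT-RNR1 and MT-RNR2 were higher in PD, from 282 ± 10 to 397 ± 9 FPKM and from 2052 ± 81 to 2875 ± 109 FPKM, both with a log2 fold change of 0.49 (adjusted p = 2.5e-05 and 4.8e-05). MT-TP, on the minus strand like MT-ND6, was at 835 ± 29 and 876 ± 94 FPKM and was not called (0.06, adjusted p = 0.49). Nuclear copies of mitochondrial DNA on chromosome 1 are listed as genes of their own. MTND2P28 and MTATP6P1 were higher in PD (log2 fold change 0.36 and 0.43, adjusted p = 0.0043 and 0.00039), and MTCO1P12 was not called (0.02, adjusted p = 0.87), so the order of the copies was that of the mitochondrial genes they resemble. Reads of near-identical copies cannot be told apart in these values.

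The 13 mitochondrial subunit genes summed to 26728 ± 85 FPKM in DMSO and 32163 ± 826 FPKM in PD (SD, n = 3), and the fragments of these 13 genes made up 2.79 ± 0.01% and 3.27 ± 0.11% of all fragments. The summed FPKM of the nuclear subunit genes was 3340 ± 120 and 3406 ± 16, and these groups overlapped. The mitochondrial sum stood at 8.01 ± 0.27 times the nuclear sum in DMSO and 9.44 ± 0.20 times in PD. In bulk libraries, more of these mRNAs per cell and a changed share of cells rich in them cannot be told apart.

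**Figure D3:**
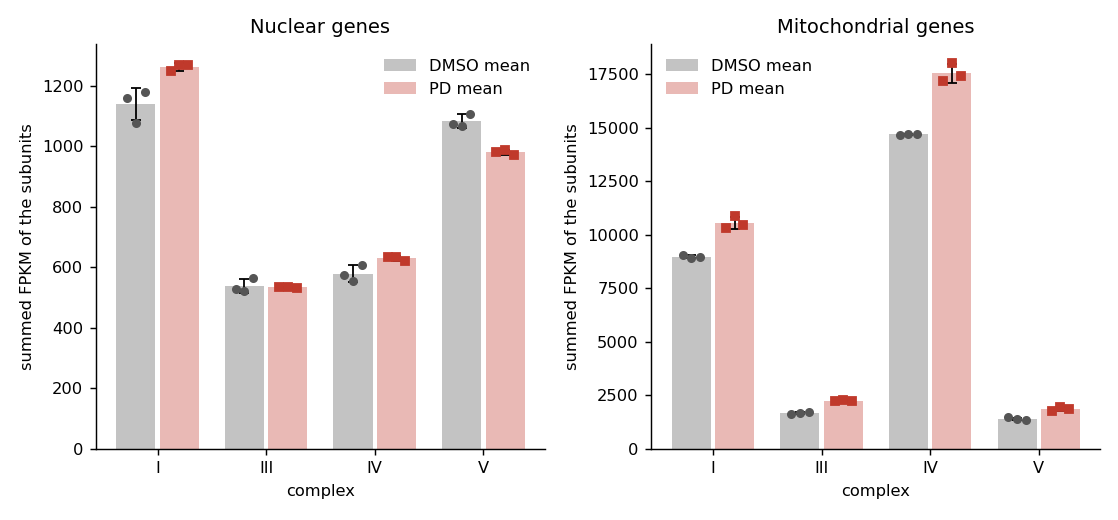
Summed FPKM of the subunit genes of each complex (vertical axis) in DMSO and PD, with nuclear genes on the left and mitochondrial genes on the right. Bars are means, error bars are SD (n = 3) and points are libraries; the nuclear sums rise for complexes I and IV and fall for complex V, and the mitochondrial sums are higher in PD for each complex.

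By complex, the nuclear sums moved in different directions. Complex I summed to 1140 ± 54 FPKM in DMSO and 1262 ± 12 FPKM in PD, complex IV to 579 ± 27 and 630 ± 8 FPKM, and complex V to 1083 ± 22 and 981 ± 8 FPKM. In these 3 complexes the libraries of the groups did not overlap, while complex III overlapped at 538 ± 22 and 534 ± 1 FPKM. The sums follow the genes with the largest changes in FPKM. In complex I the mean of NDUFS5 rose from 170.2 to 210.3 FPKM, that of NDUFB10 from 42.7 to 81.1 and that of NDUFA8 from 55.3 to 86.0, while 7 of its genes were called lower. In complex V, ATP5F1B fell from a mean of 543.3 to 480.0 FPKM, while 2 of its genes were called higher. The medians of the log2 fold changes were 0.09, 0.12, -0.05 and -0.09 for complexes I, IV, V and III. With scaling by the upper quartile, which calls 3798 genes higher and 4675 lower in place of 4588 and 3780, the medians of complexes I and IV were 0.0047 and 0.037. Under that scaling the median of all genes tested was -0.054, in place of 0.012, so both complexes stayed above it.

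Nuclear complex I held the largest changes of all members. Of its 34 genes tested, 11 were higher, 7 were lower and 16 were not called, a called share of 52.9% against 58.1% of all genes tested. Among all genes, 31.9% were higher and 26.2% lower, so the counts were near the background. NDUFB10, an accessory subunit of the membrane arm at chr16:1959538-1961975, was at 40.8, 37.7 and 49.6 FPKM in DMSO and at 81.6, 83.2 and 78.6 FPKM in PD. All PD libraries were above all DMSO libraries, and the mean rose 1.90-fold (log2 fold change 0.92, SE 0.09, adjusted p = 0.00012). Without DMSO replicate 3 the log2 fold change was 1.03, past 2-fold. NDUFA8, an accessory subunit on the intermembrane side at chr9:122144058-122159779, rose from 56.4, 55.3 and 54.4 FPKM to 86.6, 87.7 and 83.7 FPKM (1.55-fold, adjusted p = 6.9e-06).

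The other rises in complex I were smaller on the log2(FPKM + 1) scale. NDUFC2, a membrane-arm subunit, was at 0.960, 0.900 and 0.617 FPKM in DMSO and at 1.31, 1.74 and 1.46 FPKM in PD. On 28 to 81 fragments, NDUFC2 rose 1.82-fold in FPKM, more than NDUFA8, with a log2 fold change of 0.46 (adjusted p = 0.0095). Of its exon bases 21.0% are shared with other genes, NDUFC2-KCTD14 and THRSP. NDUFV3, a small subunit of the NADH-oxidizing module, rose from 7.13 ± 0.29 to 9.80 ± 0.45 FPKM (log2 fold change 0.41, adjusted p = 0.00039). NDUFA4, of complex IV by function, rose from 37.7 ± 1.6 to 43.9 ± 1.2 FPKM (0.22, adjusted p = 0.0030), and its paralog NDUFA4L2 was at 2.62 ± 0.31 and 2.39 ± 0.39 FPKM (adjusted p = 0.46).

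Falls in complex I included a core subunit. NDUFV2, which carries an iron-sulfur cluster of the NADH-oxidizing module, was at 1.28, 1.01 and 1.40 FPKM in DMSO and at 0.531, 0.505 and 0.498 FPKM in PD. The groups did not overlap, at 0.42-fold in FPKM and a log2 fold change of -0.56 on the log2(FPKM + 1) scale (SE 0.10, adjusted p = 0.0021), with 22 to 65 fragments. It shares 28.4% of its exon bases, 771 of them with the gene ENSG00000265257 on the same strand. NDUFA11 and NDUFA3, both accessory subunits of the membrane arm, were lower at -0.28 and -0.27 (adjusted p = 0.040 and 0.029). Both calls were lost without DMSO replicate 1 (adjusted p = 0.11 and 0.083), DMSO replicate 3 (0.089 and 0.076) or PD replicate 3 (0.078 and 0.083). NDUFA11 was also not called without DMSO replicate 2 (0.063) or PD replicate 2 (0.11), and NDUFA3 without PD replicate 1 (0.072).

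Core and accessory subunits of complex I were counted apart. Of the 6 nuclear core subunits tested, NDUFV1, which binds NADH, was higher (38.7 ± 1.7 to 44.5 ± 2.1 FPKM, adjusted p = 0.010), NDUFV2 was lower and 4 were not called. NDUFS1, the largest subunit with several iron-sulfur clusters, was at 10.8 ± 0.3 and 10.4 ± 0.2 FPKM (log2 fold change -0.05, adjusted p = 0.37). Of the 26 accessory subunits tested without NDUFA4 and NDUFA4L2, 9 were higher and 6 were lower, and their median change was 0.13 on the log2 scale. Calls in either direction made up 57.7% of these 26 and 33.3% of the 6 core subunits. Over all genes tested this share was 58.1%, with 31.9% higher and 26.2% lower, so the accessory subunits were called about as often as other genes.

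**Figure D4:**
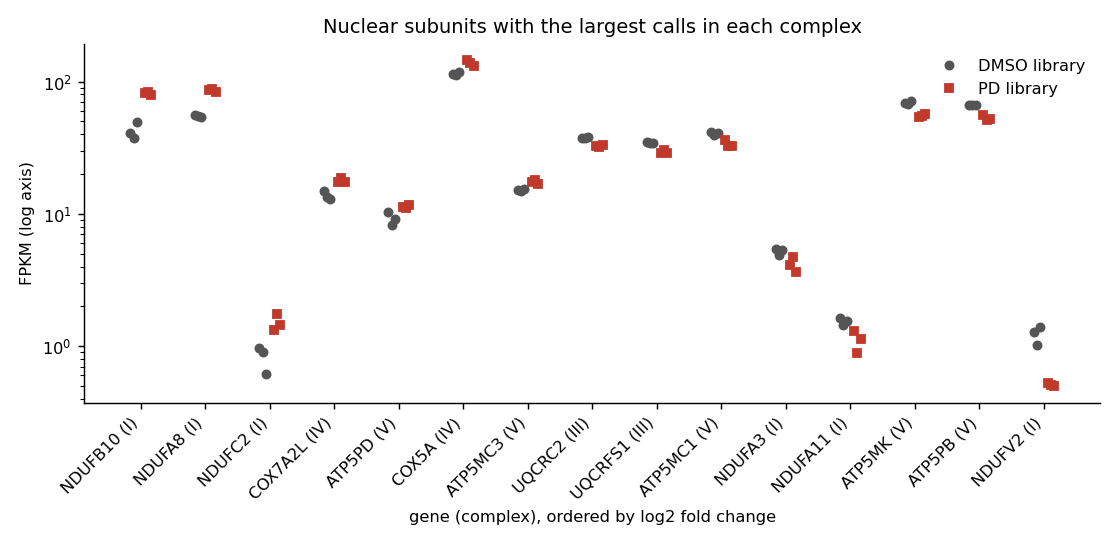
FPKM in each library (log axis) of the nuclear subunit genes with up to 3 of the largest rises and 3 of the largest falls called in each complex, ordered by log2 fold change from left to right, with the complex in parentheses. Circles are DMSO libraries and squares are PD libraries; the groups do not overlap for any gene shown, and NDUFB10 shows the largest rise and NDUFV2 the largest fall.

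In complex III, 10 nuclear genes were tested, of which 2 were lower and 8 were not called, beside 26.2% lower and 31.9% higher among all genes. UQCRFS1, the Rieske iron-sulfur protein, fell from 34.7, 34.4 and 34.2 FPKM to 29.0, 30.3 and 29.0 FPKM (0.85-fold, adjusted p = 0.00091). UQCRC2, a core subunit that faces the matrix, fell from 37.3, 37.3 and 38.0 FPKM to 32.8, 32.1 and 33.4 FPKM (0.87-fold, adjusted p = 0.0015). Both stood opposite to MT-CYB, their mitochondrially encoded partner. UQCRC1, the other core subunit, was at 134.7 ± 5.4 and 139.3 ± 3.6 FPKM (log2 fold change 0.05, adjusted p = 0.30).

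In complex IV, 11 nuclear genes were tested, of which 2 were higher and 9 were not called, beside 31.9% higher and 26.2% lower among all genes. COX7A2L, which helps join complexes III and IV into supercomplexes, rose from 14.9, 13.4 and 12.8 FPKM to 17.4, 18.5 and 17.4 FPKM (1.30-fold, adjusted p = 0.0015). COX5A, a matrix-side subunit, rose from 113.8, 111.5 and 119.2 FPKM to 144.9, 137.2 and 131.0 FPKM (1.20-fold, adjusted p = 0.0018). COX4I1, the subunit through which ATP inhibits the enzyme, was at 74.1 ± 3.0 and 72.5 ± 0.8 FPKM (log2 fold change -0.03, adjusted p = 0.49). COX6B1 was at 93.1 ± 5.2 and 101.3 ± 2.6 FPKM and missed the threshold (0.12, adjusted p = 0.051), COX7A2 was at 34.2 ± 3.3 and 35.2 ± 2.0 FPKM (adjusted p = 0.65), and COX6A1 was at 2.08 ± 0.32 and 2.35 ± 0.51 FPKM (adjusted p = 0.45). The forms of these subunits known from muscle or testis were near 0, at a mean of 0.21 and 0.11 FPKM in DMSO and PD for COX7A1 and 0.046 and 0.044 FPKM for COX6B2.

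In complex V, 17 nuclear genes were tested, of which 5 were lower, 2 were higher and 10 were not called, beside 26.2% lower and 31.9% higher among all genes. ATP5F1B, the catalytic beta subunit, had the highest FPKM of the nuclear members. Its level fell from 533.8, 542.3 and 553.6 FPKM to 479.5, 486.8 and 473.8 FPKM (0.88-fold, log2 fold change -0.18, adjusted p = 0.00074). ATP5PB, of the stalk that holds the catalytic head, fell from 66.8, 66.5 and 66.9 FPKM to 55.8, 51.3 and 52.4 FPKM (0.80-fold, adjusted p = 0.00025). ATP5MK, a small subunit that helps hold dimers of the enzyme together, fell from 68.8, 67.4 and 70.9 FPKM to 53.8, 55.2 and 56.5 FPKM (0.80-fold, adjusted p = 0.00017). In each of these 3 genes every PD library was below every DMSO library.

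The c ring of complex V turns with the proton flow, and the ATP5MC1, ATP5MC2 and ATP5MC3 genes encode the same mature protein. ATP5MC1 fell from 41.6, 39.7 and 40.8 FPKM to 36.1, 32.6 and 32.7 FPKM (log2 fold change -0.26, adjusted p = 0.0023). ATP5MC3 rose from 15.1, 14.8 and 15.4 FPKM to 17.4, 18.2 and 17.0 FPKM (0.20, adjusted p = 0.0039), and ATP5MC2 was at 54.8 ± 1.9 and 57.6 ± 2.0 FPKM (adjusted p = 0.18). Their sum was 110.6 FPKM in DMSO and 108.9 FPKM in PD. ATP5PD, of the same stalk as ATP5PB, rose from 9.22 ± 1.09 to 11.4 ± 0.4 FPKM (adjusted p = 0.017), a call lost without PD replicate 3 (0.058). ATP5IF1, which inhibits ATP breakdown by the enzyme, was at 82.5 ± 3.7 and 79.8 ± 1.6 FPKM (adjusted p = 0.33).

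Ratios between members within a library were set for 14 pairs, of which 11 could be computed. With 3 libraries against 3 the exact two-sided permutation test cannot go below p = 0.10, which 7 pairs reached (0.16 after Benjamini-Hochberg adjustment over the 11 pairs). ATP5MC1 stood at 2.69 ± 0.05 times ATP5MC3 in DMSO and 1.93 ± 0.14 times in PD (SD, n = 3). MT-ATP6 stood at 2.54 ± 0.13 and 3.82 ± 0.14 times ATP5F1B, MT-CYB at 12.4 ± 0.3 and 16.1 ± 0.4 times UQCRC1, and MT-ND1 at 131.9 ± 4.3 and 174.8 ± 9.6 times NDUFS1. The other 3 pairs at the smallest p were MT-ND6 to MT-ND5 at 0.674 and 0.611, ATP5MC2 to ATP5MC3 at 3.63 and 3.28, and ATP5IF1 to ATP5F1B at 0.152 and 0.166. MT-CO1 to COX4I1 was at 82.9 ± 2.0 and 87.9 ± 5.0, and COX7A2L to COX7A2 and NDUFA4L2 to NDUFA4 were at 0.405 and 0.506 and at 0.070 and 0.054 (each p = 0.20, exact permutation test). The last pair, COX7A1 to COX7A2, was at 0.0063 and 0.0032 (p = 0.50, exact permutation test).

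Some obligate subunits were listed at very low levels, which goes with exons shared with other genes. Of the 81 nuclear members, 45 share at least 1 exon base with another gene of GENCODE release 44, and their median level was 10.6 FPKM, against 39.5 FPKM for the 36 that share none. A mean under 3 FPKM was found for 17 members, of which 15 share exon bases, whereas 35 of the 77 members at 3 FPKM or more do. NDUFS7, a core subunit of complex I, was at 0.283 and 0.274 FPKM in DMSO and PD with 51.4% of its exon bases shared, and NDUFB8 was at 0.380 and 0.276 FPKM with 48.5% shared. ATP5ME was at 0.063 and 0.060 FPKM with 61.3% shared, most of it with MYL5 on the opposite strand. The exceptions under 3 FPKM were COX7A1 and COX8C, which share none and are known as tissue-specific forms. Fragments that touch exons of several genes may have been left out of the counts, and the part of this in the levels was not tested, so a low FPKM here does not show that a subunit is absent. Of the 9 members too low to be tested, 7 share exon bases, and the calls were 8 higher and 8 lower among the 34 nuclear members tested that share none. Over all genes tested, 31.9% were higher and 26.2% lower.

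**Figure D5:**
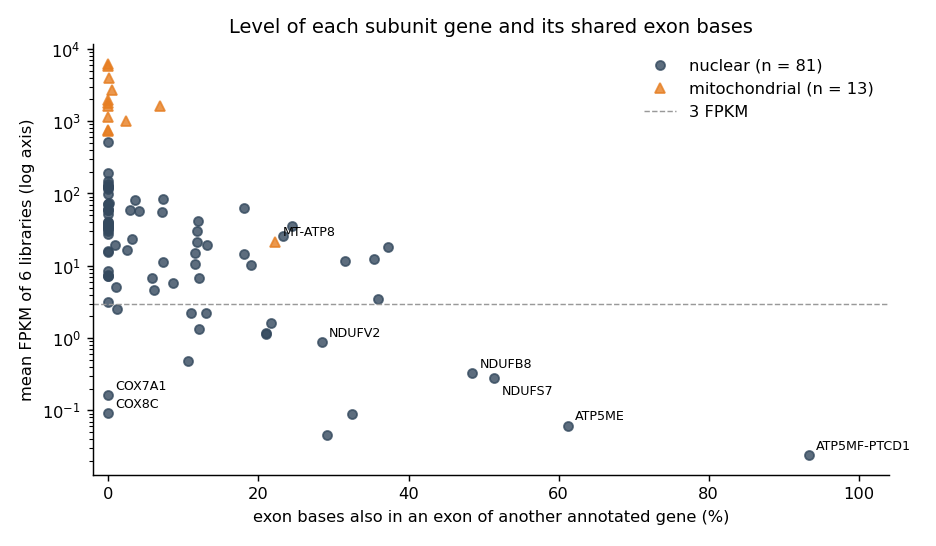
Mean FPKM over the 6 libraries (log axis) of each of the 94 subunit genes against the percentage of its exon bases that also lie in an exon of another annotated gene. Circles are nuclear and triangles mitochondrial genes; below the dashed line at 3 FPKM, 15 of 17 genes share exon bases, and COX7A1 and COX8C do not.

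Promoters of the nuclear members were read from RefSeq (GRCh38.p14), 250 bases before and 50 bases after the start, with 64 of 81 members matched by symbol. Motifs of known regulators of respiratory genes were searched on both strands, where matches of different motifs may overlap. The NRF1 motif, GCGCA followed by any base and GCGC, was in 23.4% of the members' promoters and 6.98% of 27305 promoters in all. CCGGAAG, an ETS motif bound by GABP, was in 29.7% and 12.2%, AAGATGGC of YY1 in 17.2% and 3.52%, GGGCGG of SP1 in 67.2% and 48.3%, and CCAAT of NFY in 37.5% and 39.7%. Divided by call, the NRF1 motif was in 2 of 10 members higher in PD, 4 of 12 lower and 6 of 35 not called, and the ETS motif in 1, 2 and 15 of them. The YY1 motif was in none of the 10 higher members, 3 of the 12 lower and 4 of the 35 not called. These are counts of letters and not of bound sites.

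The 250 bases before the start are shown for the 2 largest rises and the 2 largest falls among nuclear members of at least 10 FPKM, since these are the promoters of the genes that moved most. Capitals mark matches to the motifs above.
NDUFB10 (GRCh38.p14, chr16:1959288-1959537, plus strand): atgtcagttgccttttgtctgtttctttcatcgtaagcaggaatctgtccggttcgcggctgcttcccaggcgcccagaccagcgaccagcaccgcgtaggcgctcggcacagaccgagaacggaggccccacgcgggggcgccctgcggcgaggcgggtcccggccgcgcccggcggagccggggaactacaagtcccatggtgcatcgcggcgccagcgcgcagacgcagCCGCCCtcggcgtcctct
NDUFA8 (GRCh38.p14, chr9:122159780-122160029, minus strand): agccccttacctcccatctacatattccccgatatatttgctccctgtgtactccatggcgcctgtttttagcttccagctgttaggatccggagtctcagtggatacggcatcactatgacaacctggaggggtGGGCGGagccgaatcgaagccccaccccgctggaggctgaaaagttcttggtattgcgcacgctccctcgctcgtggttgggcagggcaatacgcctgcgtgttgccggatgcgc
ATP5PB (GRCh38.p14, chr1:111449214-111449463, plus strand): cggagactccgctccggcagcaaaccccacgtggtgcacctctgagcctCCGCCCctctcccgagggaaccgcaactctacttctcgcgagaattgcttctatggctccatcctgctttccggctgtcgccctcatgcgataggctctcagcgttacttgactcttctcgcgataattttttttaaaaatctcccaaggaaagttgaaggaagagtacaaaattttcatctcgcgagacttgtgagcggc
ATP5MK (GRCh38.p14, chr10:103396476-103396725, minus strand): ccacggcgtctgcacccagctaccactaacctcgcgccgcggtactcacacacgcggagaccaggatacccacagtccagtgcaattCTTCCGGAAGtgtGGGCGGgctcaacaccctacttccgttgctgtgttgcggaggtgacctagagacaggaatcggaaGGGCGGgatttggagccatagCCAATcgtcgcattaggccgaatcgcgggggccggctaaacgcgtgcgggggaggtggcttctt
Within these 250 bases NDUFB10, NDUFA8 and ATP5PB each held 1 match, to the SP1 motif. In the 300 bases searched, which run past the start and are not shown whole, NDUFA8 also held the NRF1 motif and ATP5PB the YY1 motif. The bases shown for ATP5MK held 2 overlapping ETS matches on opposite strands, 2 SP1 matches and 1 CCAAT.

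Transcripts of several factors that act on such promoters were lower in PD. In the list of regulators of mitochondrial biogenesis, 6 of 13 genes tested were lower and 1 was higher, with a median log2 fold change of -0.11. Among all genes tested, 26.2% were lower and 31.9% higher. The share called in either direction was 53.8% in the list and 58.1% over all genes. PPRC1, a coactivator of these factors, had the largest fall, from 21.8 ± 1.0 to 13.8 ± 0.5 FPKM (-0.62, adjusted p = 3.7e-05), and PPARA, a receptor that drives fatty acid oxidation, rose from 3.36 ± 0.34 to 5.17 ± 0.23 FPKM (0.50, adjusted p = 0.00070). The others that fell were GABPB1 (-0.52), NRF1 (-0.46), GABPA (-0.37), YY1 (-0.32) and GABPB2, which were picked once their values were known. PPARGC1A was at 1.87 and 1.66 FPKM (adjusted p = 0.35).

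Genes that act on mitochondrial DNA and RNA were read from lists beside the 31.9% of all genes called higher and the 26.2% called lower. In the list for transcription and replication of mitochondrial DNA, 5 of 17 were lower and 3 higher, with a median of 0.02. TFB2M, needed to start transcription, had the largest fall, from 42.3 ± 2.4 to 26.1 ± 0.4 FPKM (-0.67, adjusted p = 2.4e-05), and MTERF3 had the largest rise, from 12.7 ± 0.7 to 19.7 ± 1.4 FPKM (0.60, adjusted p = 0.00016). TFAM, which packages the DNA and opens its promoters, fell from 28.1 ± 3.2 to 23.2 ± 0.9 FPKM (adjusted p = 0.025), and POLRMT, the polymerase, was at 22.6 ± 0.5 and 22.2 ± 0.9 FPKM (adjusted p = 0.58). In the list for processing and stability of mitochondrial RNA, 8 of 22 were lower and 2 higher, with a median of -0.11. PTCD3, of the mitochondrial ribosome, had the largest fall, from 10.4 ± 0.3 to 5.34 ± 0.19 FPKM (-0.84, adjusted p = 1.1e-05), MTIF3, a translation initiation factor, had the largest rise (0.49, adjusted p = 0.0022), and LRPPRC, which stabilizes mitochondrial mRNAs, fell from 35.4 ± 1.3 to 24.0 ± 1.5 FPKM (-0.54, adjusted p = 0.00010). TFAM, POLRMT and LRPPRC were picked once their values were known.

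Proteins that build or feed the complexes were divided. The counts of these lists stand beside 31.9% of all genes tested called higher and 26.2% called lower. Of 48 assembly factors tested, 16 were higher and 12 lower, with a median of 0.0045. The share called was 58.3%, near the 58.1% of all genes. NDUFAF1, which assembles complex I, rose from 5.32 ± 0.35 to 10.0 ± 0.9 FPKM (0.80, adjusted p = 9.0e-05), and COA7, for complex IV, fell from 37.0 ± 0.8 to 25.4 ± 1.5 FPKM (-0.53, adjusted p = 7.5e-05). Of 8 genes of complex II and mobile carriers, ETFDH, which passes electrons from fatty acid oxidation to ubiquinone, rose most (0.57, adjusted p = 0.00015), CYCS, the cytochrome c gene, fell (-0.25, adjusted p = 0.0011), and 2 in all were higher and 1 lower. Of 12 coenzyme Q genes, 6 were higher and 1 lower, with COQ10A at 0.82 (adjusted p = 0.00012) and COQ3 at -0.64 (adjusted p = 0.0034). Of 5 carriers and uncouplers tested, SLC25A4, an ADP and ATP exchanger, rose from 5.44 ± 0.27 to 8.90 ± 0.16 FPKM (0.62, adjusted p = 4.2e-05), UCP2 rose by 0.55, and 3 were not called. Of the subunits outside the names used here, NDUFAB1 and DMAC2L were not called (adjusted p = 0.91 and 0.10).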

How the data were processed

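Poly(A) RNA of 3 PD-treated and 3 DMSO-treated dishes was sequenced, and groups and replicate numbers come from the sample titles. Per the submitters' processing notes, HISAT2, HTSeq 0.6.0 and the build hg38 were used, and the authors deposited FPKM values in a table of 28563 genes, with all value columns used. The annotation release, counting mode and strand setting are not given in the sources used here. Nothing says that the dishes were independent cultures, so p-values measure the spread between dishes of 1 line.

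Symbols, exons and coordinates came from GENCODE release 44. From the FPKM, whole fragments were worked back within a tolerance of 0.01, by exon length for 13420 genes and by a common step for 15143. They served for depth and for voom alone. PD was compared with DMSO by limma 3.58.1 in R 4.3.3 (lmFit and eBayes with trend, no covariate) on log2(FPKM + 1), over the 14400 genes whose mean reached 0.5 FPKM, with Benjamini-Hochberg adjustment over all of them. A gene was called where the adjusted p was 0.05 or less, and fold changes on this scale understate those of low genes. Ratios were compared by exact two-sided permutation tests in scipy 1.17.1. The fits were tested on simulated data.

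Named genes were all mitochondrial members, the 3 largest rises and falls called in each nuclear complex whose groups did not overlap, the members of the ratio pairs, and the largest rise and fall of each other list. NDUFV1, NDUFV3, NDUFS5, NDUFS7, NDUFA9, NDUFB8, ATP5ME and COX8C were picked once their values were known. The members and lists were chosen with earlier results of these data known. The alternatives were a pseudocount of 0.1, no filter, a replicate block, 3 other scalings, voom on fragments with at least 10 in 3 libraries, a loess correction (span 0.5) for GC content and exon length, and leaving out each library. Replicate numbers did not pair the libraries, since the correlations of same-numbered deviations were -0.027, -0.0046 and 0.090.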

Additional observations from a re-analysis of the deposited data

How the results depend on the processing

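Of the 39 named genes tested, 25 kept their call in all 14 alternatives. UQCRC1, not called, was lower at -0.12 (adjusted p = 0.0070, limma) after the GC and length correction. The nuclear genes called lower numbered 9 with no filter and 23 with upper-quartile scaling, in place of 14. The mitochondrial genes called lower numbered 2 with median-of-ratios, upper-quartile or nuclear-total scaling and with voom, where MT-ND5 joined MT-ND6, and 0 with the GC and length correction. With no filter, 6 mitochondrial genes in place of 9 were called higher. NDUFV2 passed 2-fold with a pseudocount of 0.1 and with voom, so the count was 1 in each.

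Medians of log2 fold changes moved by more than the spread between libraries as follows. With upper-quartile scaling they were -0.032 for nuclear and 0.27 for mitochondrial genes, 0.0047, -0.16, 0.037 and -0.13 for nuclear complexes I, III, IV and V, and 0.21 and 0.30 for mitochondrial complexes I and IV. With the GC and length correction they were -0.015 for nuclear and 0.45 for mitochondrial genes, 0.0038, -0.13 and -0.078 for nuclear complexes I, III and V, and 0.44 and 0.51 for mitochondrial complexes I and IV. Nuclear-total scaling gave -0.073 for nuclear complex V and 0.27 for mitochondrial complex I, median-of-ratios scaling gave 0.27 for mitochondrial complex I, voom gave -0.12 for nuclear complex III, and no filter gave 0.066 for nuclear complex IV. The median of all genes tested was 0.012 in the main fit and also moved. It was -0.054 with upper-quartile scaling, -0.0090 with nuclear-total scaling and -0.0071 with median-of-ratios scaling. With the GC and length correction it was -0.017, with voom 0.027 and with no filter -0.0065. The cause of these shifts was not tested.

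With each library left out, nuclear genes called higher ranged from 13 to 20 and lower from 9 to 14, the 9 without DMSO replicate 1. Mitochondrial genes ranged from 9 to 10 higher and 1 to 2 lower, the 2 without PD replicate 2, and genes past 2-fold from 0 to 1, the 1 being NDUFB10 without DMSO replicate 3. Medians ranged from 0.016 to 0.054 for nuclear and 0.30 to 0.37 for mitochondrial genes. They ranged from 0.047 to 0.11, -0.10 to -0.063, 0.056 to 0.13 and -0.060 to -0.021 for nuclear complexes I, III, IV and V, and from 0.29 to 0.31 and 0.36 to 0.39 for mitochondrial complexes I and IV. The lowest medians for nuclear genes and for nuclear complexes I and IV were those without DMSO replicate 2. Leaving out a library leaves 2 in its group.

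The replicate block gave 17 nuclear genes higher and 13 lower and 9 and 1 mitochondrial genes, and of the named genes it ended the call of NDUFA3 (adjusted p = 0.058, limma) and gave one to COX6B1 (0.035). The members listed under 0.5 FPKM had at most 115 fragments in a library, which limits what can be read from them. Exon length also counts, since NDUFA9 was left untested on 64 to 115 fragments with 10391 bases. NDUFV2 was tested on 22 to 65 fragments with 2711 bases.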
